A study of Mus musculus with 8 samples.

Results

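The genes described here encode the proteins of the mitochondrial ribosome and were chosen by symbol, Mrpl or Mrps followed by a digit. They number 76 of the 18193 genes that the array annotation names on a probe set of 1 gene, 47 of the large subunit (Mrpl) and 29 of the small subunit (Mrps). Each was represented by its probe set with the highest mean over the 8 arrays. Mrpl30 and Mrpl53 share their probe sets with another gene and were not analysed here. Expression was measured on 8 Affymetrix arrays, in LSK cells of the bone marrow, the lineage-negative, Sca-1 positive, Kit positive fraction that holds blood stem cells and early progenitors. The controls were 4 normal mice, labelled WT, and the other 4 mice carried a conditional knockout of Msi2 (Msi2 KO), the gene of the RNA-binding protein Musashi-2. The Cre driver, the time after deletion and the age of the mice are not given in the sources used here. Values are log2 signals, so a difference of 1 is a doubling.

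Mitochondria keep their own ribosome, which translates the few proteins encoded by mitochondrial DNA, all of them core subunits of the respiratory chain and of ATP synthase. Its ribosomal RNAs come from the mitochondrial genome, whereas every one of its proteins is encoded in the nucleus, made in the cytosol and imported. The small subunit binds the messenger RNA and reads the codons, and the large subunit forms the peptide bond and passes the chain to the inner membrane. Some of the proteins descend from bacterial ribosomal proteins, and others were added in the mitochondrial lineage. In blood-forming cells, stem cells are held to rely little on respiration and their dividing progeny more.

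The promoters of these genes are shown first, since they bear on whether the members share a regulatory layout. RefSeq windows (GRCm38.p6) of 300 bases, from 250 before to 50 after the start of transcription, were found for 67 of the 76 members. They were searched on both strands for the motif of nuclear respiratory factor NRF1, 10 letters in which a middle letter may be any base. Its matches in Mrpl12 and Mrpl17 are printed in capitals below. The other motifs, searched in the same way, were CCGGAAG (the core of ETS factors such as GABP), AAGATGGCG (YY1) and CACGTG (the E-box of MYC and related factors). No match of one motif overlapped a match of another among the 59 found in members. The ETS core was in 34.2% of the 73 member windows, against 18.0% of the 11097 windows of other tested genes and 8.86% of all 32851 windows in the table. The NRF1 motif was in 16.4%, 10.3% and 4.60% of these sets, and the YY1 motif in 11%, 3.08% and 1.40%. The E-box was about as frequent in members (9.59%) as in other tested genes (10%), with 7.15% over all windows. A match is a description of letters and not evidence of binding.

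The 250 bases before the start are printed for 4 members that have 1 window, hold a motif before the start and have no head-to-head neighbour. Mrpl12, Mrpl52 and Mrpl36 had the smallest p among such members with an NRF1, ETS and YY1 match, and Mrpl17 had the lowest difference. The YY1 matches of Mrpl35 and Mrps24 lie after the start and are not printed. Capitals mark the motif matches.
Mrpl12, chr11:120484387-120484636, plus strand: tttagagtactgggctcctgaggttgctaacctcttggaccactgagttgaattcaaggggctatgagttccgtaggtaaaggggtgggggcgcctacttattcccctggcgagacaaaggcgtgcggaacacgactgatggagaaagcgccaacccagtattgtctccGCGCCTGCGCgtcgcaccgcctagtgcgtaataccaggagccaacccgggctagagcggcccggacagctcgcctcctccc
Mrpl52, chr14:54426659-54426908, plus strand: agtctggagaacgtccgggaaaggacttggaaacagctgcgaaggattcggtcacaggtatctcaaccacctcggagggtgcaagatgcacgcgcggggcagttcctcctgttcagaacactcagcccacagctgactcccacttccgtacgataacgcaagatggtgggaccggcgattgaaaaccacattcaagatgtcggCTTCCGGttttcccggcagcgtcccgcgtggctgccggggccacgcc
Mrpl36, chr13:73330759-73331008, plus strand: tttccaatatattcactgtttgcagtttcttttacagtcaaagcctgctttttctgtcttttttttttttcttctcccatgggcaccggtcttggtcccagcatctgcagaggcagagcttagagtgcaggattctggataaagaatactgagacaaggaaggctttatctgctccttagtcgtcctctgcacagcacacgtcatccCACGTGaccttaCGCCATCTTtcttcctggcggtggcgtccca
Mrpl17, chr7:105811088-105811337, minus strand: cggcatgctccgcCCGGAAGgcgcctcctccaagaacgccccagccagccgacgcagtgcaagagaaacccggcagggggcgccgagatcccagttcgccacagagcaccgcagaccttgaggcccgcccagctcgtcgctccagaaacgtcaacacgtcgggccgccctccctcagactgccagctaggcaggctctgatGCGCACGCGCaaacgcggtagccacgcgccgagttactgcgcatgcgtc
The match of Mrpl12 begins 81 bases before the start and that of Mrpl52 47 bases before it. Mrpl36 holds its YY1 match 31 bases and an E-box 43 bases before the start. Mrpl17 carries both an NRF1 match (49 bases before) and an ETS core (237 bases before), and its signal was lower in Msi2 KO. Among members, the mean difference between the groups was 0.18 for the 12 with an NRF1 match and 0.20 for the 55 without. It was 0.16 for the 25 with an ETS core and 0.22 for the 42 without. All 8 members with a YY1 match had a higher mean in Msi2 KO, as did 51 of the 59 without. The mean difference was 0.33 for the 8 and 0.18 for the 59. For the E-box it was 0.27 for the 5 members with a match and 0.19 for the 62 without. These splits were not tested.

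Many members start head to head with a neighbour. A gene on the opposite strand started within 500 bases of 22 of the 67 members (32.8%), against 18.4% of the other 8680 tested genes with a window. Of these neighbours 19 were tested, and 15 were higher in Msi2 KO, beside 50.4% of all genes, with a median difference of 0.14. The 19 include Mrps11 and Mrpl46, which are members and each other's neighbour. None of the 19 reached an unadjusted p under 0.05 in limma, beside 11.4% of all genes. 1 such pair joins the subunits, since Mrps11 and Mrpl46 start 42 bases apart, with the following bases between their starts (Mrps11 strand, no motif match).
Mrps11 to Mrpl46, chr7:78783090-78783130: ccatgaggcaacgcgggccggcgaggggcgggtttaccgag
The members of that pair gave differences of 0.19 (Mrps11) and 0.0035 (Mrpl46), or 0.11 and -0.18 without Msi2 KO 3. On Msi2 KO 2 the Mrpl46 signal was 8.07, below every control, while Mrps11 read 8.04, inside the control range of 7.92 to 8.40.

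The deleted gene, read on its brightest probe set, was lower on every Msi2 KO array than on any control, but unevenly so. Msi2 read 11.65, 11.40, 11.48 and 11.62 on controls 1 to 4 and 11.36, 11.20, 8.73 and 10.38 on Msi2 KO 1 to 4. Msi2 KO 3 was unlike the rest. Along the leading principal component, which held 32.4% of the variance, it scored 50.5 and the others -26.7 to 11. Its difference between the 3' and 5' probe sets of actin was the highest (0.29, others -0.12 to 0.13), while that of Gapdh lay within the range of the others (1.70, others 1.35 to 1.85). Control 1, Msi2 KO 1 and Msi2 KO 2 had low Xist (4.79 to 5.55, others 11.92 to 12.51), and Xist marks female cells, so both groups appear mixed in sex, and unequally. Of the LSK markers, Kit, Flt3, Cd34, Meis1 and Gata2 were measured, and Ly6a (Sca-1) was not analysed here. The T cell genes Cd3e, Cd3d, Cd4 and Cd8a and the B cell genes Cd79a, Ms4a1 and Pax5 were listed at 0. In bulk samples such as these, fewer cells of a type and less RNA per cell cannot be told apart.

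All 76 members had a signal, whereas 58.9% of the 18193 named genes did and the rest were listed at 0 on every array. No member, and none of the 10720 genes tested, passed an adjusted p of 0.05 in limma (percent called 0). The smallest adjusted p among members was 0.274, and 0.176 among all genes. By direction, 65 of 76 members (85.5%) had a higher mean in Msi2 KO, beside 50.4% of all genes. The median difference was 0.19 over the members and 0.0022 over all genes. At an unadjusted p under 0.05, limma gave 10 of the 76 as higher (13.2%) and 0 as lower, where the shares of all genes were 5.74% higher and 5.66% lower (1222 genes in both directions). For 7 members (9.21%) all 4 Msi2 KO arrays lay above every control, beside 3.63% of all genes. For 0 members did all lie below, beside 3.48% of all genes. The shift was small per gene, with a mean of 0.19, or 1.14-fold, and differences that ran from -0.32 to 0.76.

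**Figure D1:**
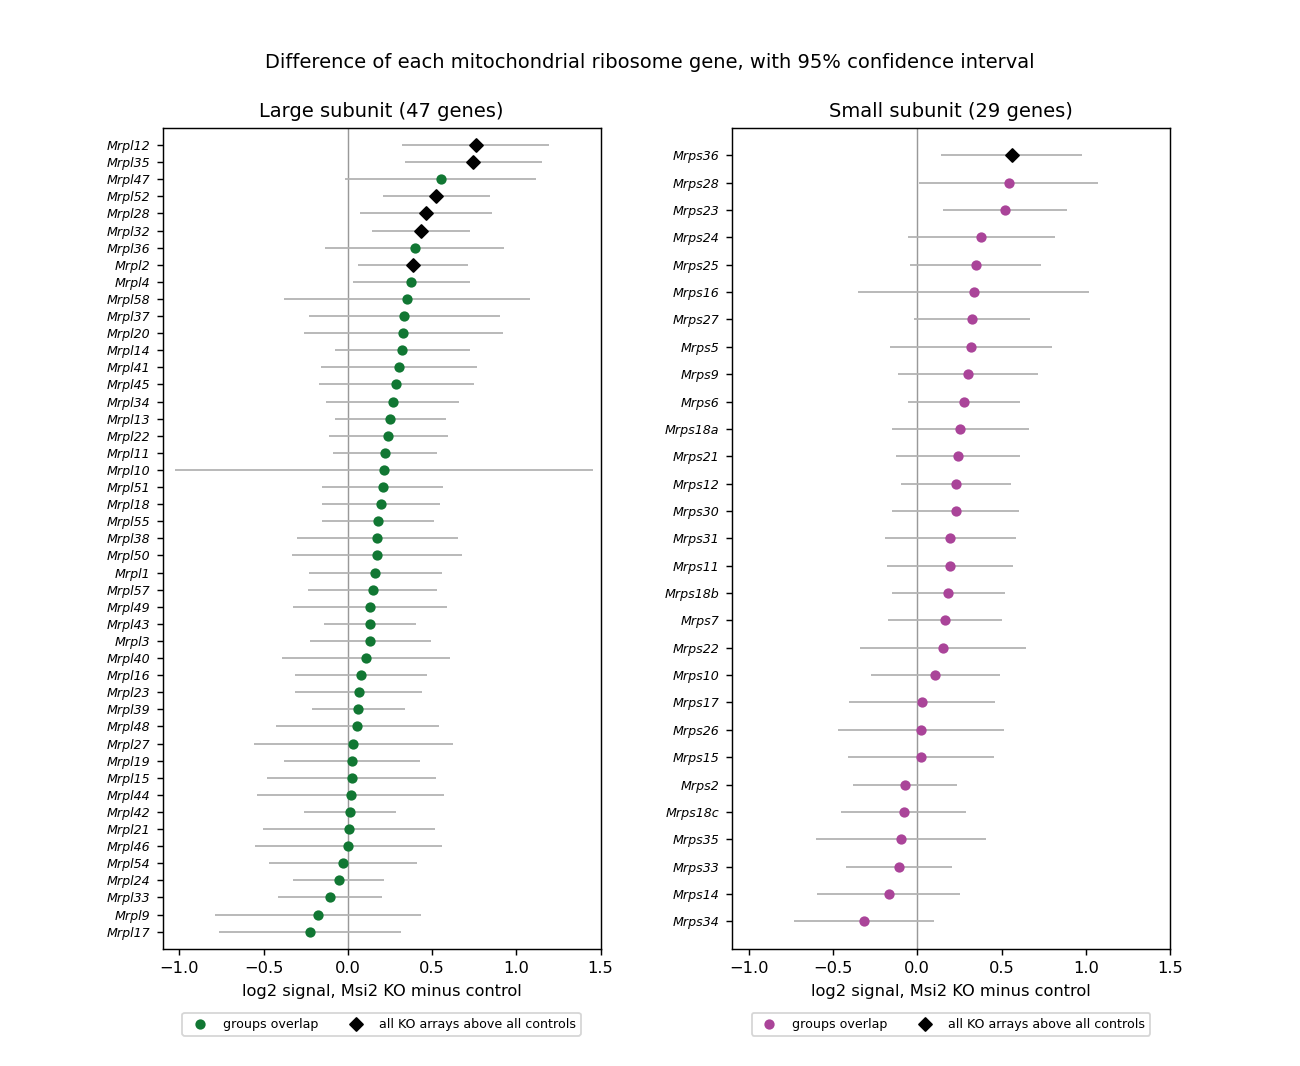
Each point is the difference in log2 signal between the 4 Msi2 KO and 4 control arrays for 1 gene, with its 95% confidence interval from limma, ranked within the large (47 genes) and small (29 genes) subunit. Black diamonds mark the 7 genes whose Msi2 KO arrays all lay above every control, and most points lie to the right of 0.

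The subunits were compared as the question of whether either one differs more. The large subunit mean was 0.20 higher in Msi2 KO and the small subunit mean 0.18 higher. 42 of 47 large subunit genes and 23 of 29 small subunit genes were higher. Relative to the control mean, the large subunit mean stood at 0.12, 0.06, -0.14 and -0.04 on controls 1 to 4 and at -0.02, 0.09, 0.47 and 0.25 on Msi2 KO 1 to 4. The small subunit mean stood at 0.04, 0.06, -0.11 and 0.01 on the controls and at 0.01, 0.05, 0.44 and 0.20 on the Msi2 KO arrays. In both subunits Msi2 KO 3 was highest and Msi2 KO 4 next, and Msi2 KO 1 and 2 lay within the control range. The large mean minus the small mean ran from -0.05 to 0.08 on controls and from -0.02 to 0.05 on Msi2 KO arrays, and its group means differed by 0.02. The subunits thus differed from each other by less than the spread of that value between control arrays (SD 0.06). These means carry no test, since the members were chosen with results of these data known.

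**Figure D2:**
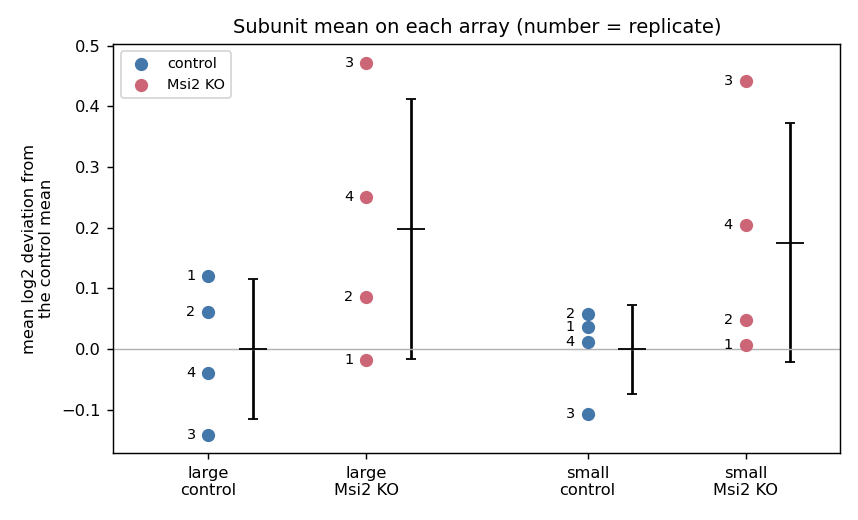
Points are the mean log2 deviation of the 47 large and 29 small subunit genes from the control mean on each array, numbered by replicate, and bars show the group mean and SD (n = 4). Msi2 KO 3 and 4 lie above all controls in both subunits, and Msi2 KO 1 and 2 lie among them.

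The large subunit held the members with the smallest p. Mrpl12, the protein of the flexible stalk that recruits translation factors, read 8.85, 8.63, 8.51 and 8.51 on controls 1 to 4 and 9.08, 9.29, 9.92 and 9.26 on Msi2 KO 1 to 4. Every Msi2 KO array was above every control, and Msi2 KO 3 was the highest. Its difference was 0.76 ± 0.19 (SE, n = 4 each), or 1.69-fold, at a limma adjusted p of 0.275, and it was 0.58 without Msi2 KO 3. Mrpl35, a counterpart of a bacterial large subunit protein, read 7.92, 7.94, 7.82 and 7.60 on controls and 8.38, 8.39, 9.06 and 8.42 on Msi2 KO arrays. These groups did not overlap either, and Msi2 KO 1, 2 and 4 lay close together with Msi2 KO 3 above them. The difference was 0.74 ± 0.18 (SE, n = 4 each; adjusted p 0.274). Both its dimmer probe sets were also higher, by 0.58 and 0.18.

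Mrpl52, a protein with no bacterial counterpart, had the third smallest p of the large subunit. It read 11.38, 11.20, 11.17 and 11 on controls and 11.58, 11.66, 11.96 and 11.66 on Msi2 KO arrays, a difference of 0.52 ± 0.14 (SE, n = 4 each). Mrpl32, whose maturation by a protease of the inner membrane is a known step of ribosome assembly, read 8.84, 9.08, 9.01 and 9.11 on controls. On Msi2 KO arrays Mrpl32 read 9.52, 9.25, 9.55 and 9.46, and here Msi2 KO 3 was level with Msi2 KO 1. The Mrpl32 difference of 0.43 was 0.40 without Msi2 KO 3.

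Mrpl2, Mrpl28 and Mrpl4 followed. Mrpl2, a protein near the peptidyl transferase centre, read 8.79, 8.91, 8.64 and 8.85 on controls and 9.22, 9.17, 9.43 and 8.92 on Msi2 KO arrays (difference 0.39). Its lowest Msi2 KO array lay only just above the highest control. Mrpl28 had a control range of 8.02 to 8.59 and a Msi2 KO range of 8.61 to 8.96 (difference 0.46, and 0.45 without Msi2 KO 3). Mrpl4, which lines the exit tunnel, read 8.16 to 8.57 on controls and 8.52 to 9.02 on Msi2 KO arrays, so its groups overlapped at Msi2 KO 4. Mrpl47, which sits at the tunnel exit, differed by 0.55 (95% confidence interval -0.02 to 1.12). Its 3 high arrays were Msi2 KO 2 to 4 (8.62, 9.35 and 8.83), and Msi2 KO 1 read 8.21, inside the control range of 7.74 to 8.41. Without Msi2 KO 3 its difference was 0.35.

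**Figure D3:**
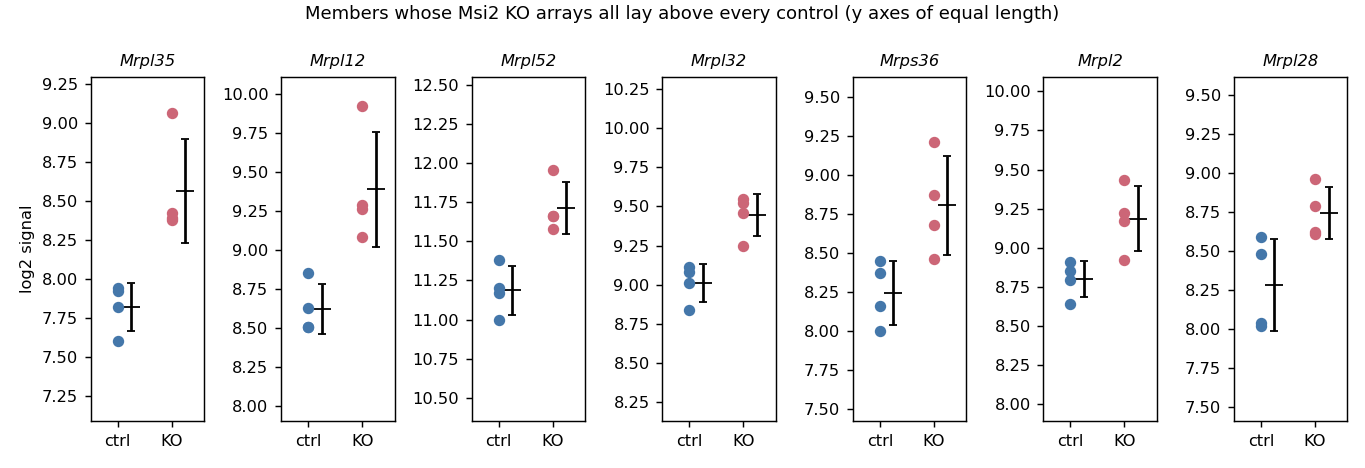
Points are the log2 signal of each array for the 7 members whose Msi2 KO arrays all lay above every control, with group mean and SD (n = 4) beside them and y axes of equal length. Msi2 KO 3 is the highest point for Mrpl35, Mrpl12, Mrpl52, Mrpl32, Mrps36 and Mrpl2, while Msi2 KO 2 is highest for Mrpl28.

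For each of the 7 members without overlap the two-sided exact permutation p was 0.0286, the smallest that 4 arrays against 4 can give. Lack of overlap fixes that p, so it adds nothing to the choice of these 7. Their limma adjusted p lay between 0.274 and 0.392. No other member joined them when Msi2 KO 3 was left out, a step that can only add to such a count. In that setting 5.30% of all genes lay above every control and 5.42% below, the latter beside 0 members.

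Of the small subunit, 3 members had an unadjusted p under 0.05. Mrps23, a mitochondria-specific protein, read 7.88, 7.68, 7.44 and 7.67 on controls and 7.86, 8.43, 8.32 and 8.15 on Msi2 KO arrays, a difference of 0.52 ± 0.16 (SE, n = 4 each). Only Msi2 KO 1 was inside the control range. Mrps28 read 9.09, 9.13, 9.43 and 9.24 on controls and 9.38, 9.31, 10.32 and 10.05 on Msi2 KO arrays. Its difference of 0.54 came from Msi2 KO 3 and 4, while Msi2 KO 1 and 2 lay among the controls, and it was 0.36 without Msi2 KO 3. Mrps36 read 8.0, 8.16, 8.45 and 8.37 on controls and 8.46, 8.68, 9.21 and 8.87 on Msi2 KO arrays, without overlap (difference 0.56 ± 0.19, SE, n = 4 each). Despite its symbol, Mrps36 is now known as a subunit of the oxoglutarate dehydrogenase complex of the citric acid cycle. It was thus the only gene with a small subunit symbol whose groups did not overlap.

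The next small subunit members missed an unadjusted p of 0.05. Mrps27, a protein with RNA-binding repeats, read 7.22 to 7.42 on controls and 7.33 to 7.95 on Msi2 KO arrays (difference 0.33). Mrps25 had a difference of 0.35 and Mrps24, which sits where the messenger RNA enters, one of 0.38. For Mrps24 the highest array was Msi2 KO 1 (10.68), the array on which most members were near the controls, and the other 3 read 9.89 to 10. The members just inside and outside the unadjusted threshold were Mrpl4 (p 0.0368), Mrps28 (p 0.0456), Mrpl47 (p 0.0563) and Mrps27 (p 0.0612), all from limma.

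Against the direction of the rest, 11 members had a lower mean in Msi2 KO, and only Mrps34 was lower by more than 0.25. Mrps34 read 8.10, 8.11, 7.62 and 7.48 on controls and 7.30, 7.51, 7.74 and 7.51 on Msi2 KO arrays, a difference of -0.32 with overlapping groups (adjusted p 0.544). Its other probe set on the array is shared with Nme3 and was not used. Mrpl17 (-0.23), Mrpl9 (-0.18) and Mrpl33 (-0.11) were the lowest of the large subunit, and all are counterparts of bacterial proteins. Mrps14 (-0.17) and Mrps33 (-0.11) came after Mrps34 in the small subunit, where 6 members in all were lower. Without Msi2 KO 3, Mrpl9 gave -0.31 and Mrps14 -0.33. Mrps14 held to 9.98 to 10.18 on controls but spread from 9.48 on Msi2 KO 2 to 10.36 on Msi2 KO 3. Mrpl10 had the widest interval of all members (-1.03 to 1.45), since Msi2 KO 1 read 5.61 and the other Msi2 KO arrays 8.03 to 8.24.

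3 members descend from 1 ancestral protein and differ in their place. Mrps18a, which published structures place in the large subunit, differed by 0.25. Mrps18b (0.18) and Mrps18c (-0.08) belong to the small subunit, and all 3 had overlapping groups. Mrps30, also part of the large subunit in the structures, differed by 0.23. Msi2 KO 3 carried much of these values, which were 0.15 (Mrps18a), 0.10 (Mrps18b), -0.17 (Mrps18c) and 0.09 (Mrps30) without it. With Mrps18a and Mrps30 moved and Mrps36 left out, the large subunit mean was 0.20 and the small subunit mean 0.16. By ancestry, the 46 members with a bacterial counterpart differed by 0.20 on average (39 higher) and the 28 mitochondria-specific members by 0.15 (24 higher), or 0.12 and 0.06 without Msi2 KO 3. The SD of the differences was 0.22 among the former and 0.19 among the latter. Mrpl58, a peptidyl-tRNA hydrolase built into the large subunit that rescues stalled ribosomes, read 7.80 to 9.43 on controls and 8.73 to 9.50 on Msi2 KO arrays (difference 0.35).

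Ribosomal proteins with other symbols were also higher, all 4 of those measured, with a mean of 0.34 (0.25 without Msi2 KO 3). Gadd45gip1, a large subunit protein at the exit of the tunnel, read 7.99, 7.61, 7.34 and 7.85 on controls and 8.0, 8.63, 8.70 and 8.28 on Msi2 KO arrays. Its groups did not overlap, though Msi2 KO 1 lay only just above control 1, and the difference was 0.70 ± 0.20 (SE, n = 4 each; limma adjusted p 0.299). The small subunit proteins Dap3, which binds GTP, Chchd1 and Ptcd3, an RNA-binding repeat protein, gave 0.29, 0.27 and 0.10. Aurkaip1 was not analysed here.

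Where a member had several probe sets they often disagreed in sign, as 20 of 35 such members did. Over all 139 member probe sets, 102 (73.4%) were higher in Msi2 KO. In 5 members the probe sets opposed each other by over 0.5, namely Mrps25, Mrpl48, Mrpl58, Mrps5 and Mrpl11. For Mrps25 the probe set used gave 0.35 and the others 0.18 and -0.58. The opposing probe set was the dimmest for Mrpl48 (-0.71), Mrpl58 (-0.40) and Mrpl11 (-0.23). Mrps5 was different, since a probe set with a control mean of 8.55 gave -0.32 and the one used, at 8.76, gave 0.32.

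The other genes of mitochondrial translation were given by lists drawn from textbook knowledge. Of the mitochondrial translation factors, 10 of 13 were higher (median 0.19), with 3 higher and 0 lower at an unadjusted p under 0.05, where all genes gave 5.74% and 5.66%. Without Msi2 KO 3, 7 of 13 were higher (median 0.05), with 0 higher and 1 lower at that p. In that setting all genes gave 4.90% higher and 5.28% lower. The 3 on all arrays were Slirp (0.34), which steadies mitochondrial messenger RNAs, and the elongation factors Gfm1 (0.46) and Tufm (0.38). Of the ribosome assembly factors, 16 of 25 were higher (median 0.07), 3 at an unadjusted p under 0.05 and 0 lower. Without Msi2 KO 3 the median was 0.02 and the mean -0.02, with 3 higher and 2 lower at that p. The RNA pseudouridine synthase Rpusd4 (1.11 ± 0.22, SE, n = 4 each), the membrane protein Mpv17l2 (0.61) and the RNA helicase Dhx30 (0.49) were the 3 on all arrays, each without overlap between the groups (3.63% of all genes). Mrm1 (-0.40) and Trub2 (-0.39), enzymes that modify mitochondrial RNA, had lower means and missed that p.

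Of the mitochondrial aminoacyl-tRNA synthetases, which charge the transfer RNAs, 11 of 15 were higher (median 0.14). Vars2 (0.41) and Iars2 (0.47) had an unadjusted p under 0.05 on the higher side and Lars2 (-0.44) on the lower, and without Msi2 KO 3 the list gave 1 higher and 1 lower (median 0.08). Regulators of mitochondrial transcription and biogenesis had no common direction, with 8 of 18 higher, a median of -0.08, and 3 higher and 2 lower at an unadjusted p under 0.05. Leaving out Msi2 KO 3 gave 1 higher and 3 lower, and a median of -0.14. The shares of all genes were 5.74% higher and 5.66% lower on all arrays, and 4.90% and 5.28% without Msi2 KO 3. Of the 3 with the smallest p on all arrays, the termination factor family member Mterf2 (-0.49) and Gabpb1 (-0.32), a subunit of the ETS factor GABP, were lower, and the transcription initiation factor Tfb2m (0.67) was higher. Nrf1 gave -0.19, Gabpa -0.17, Yy1 -0.04 and Myc 0.16. Of the genes of membrane insertion and quality control, 6 of 10 were higher (median 0.08) and 0 reached that p, with the insertase Oxa1l at 0.21, Phb2 at 0.17 and Spg7 at 0.21. Only Msi2 KO 3 (0.37) lay above 0 in the mean of that list among the Msi2 KO arrays, and without it 5 of 10 were higher and the median was -0.03. None of these list members passed the adjusted threshold of limma.

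Parts of the mitochondrial and cytosolic machinery that are most alike were set beside the members. The 78 respiratory chain and ATP synthase subunits had 68 higher (median 0.16), and their mean stood at 0.07, 0.11, 0.28 and 0.24 on Msi2 KO 1 to 4 against -0.06 to 0.03 on controls. The 41 cytosolic ribosomal proteins were those that a symbol rule found among the genes tested, so the list is not the whole cytosolic ribosome. Of the 41, 31 were higher (median 0.08). Their mean stood at 0.12, 0.07, 0.12 and 0.10 on Msi2 KO 1 to 4 and at -0.04 to 0.02 on controls. The mitochondrial ribosome overlapped between the groups, at -0.01, 0.07, 0.46 and 0.23 on Msi2 KO 1 to 4 and -0.13 to 0.09 on controls. It was therefore the list of these 3 with the widest spread between arrays of a group (SD 0.21 in Msi2 KO and 0.10 in controls). Whether the lists differ was not tested.

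**Figure D4:**
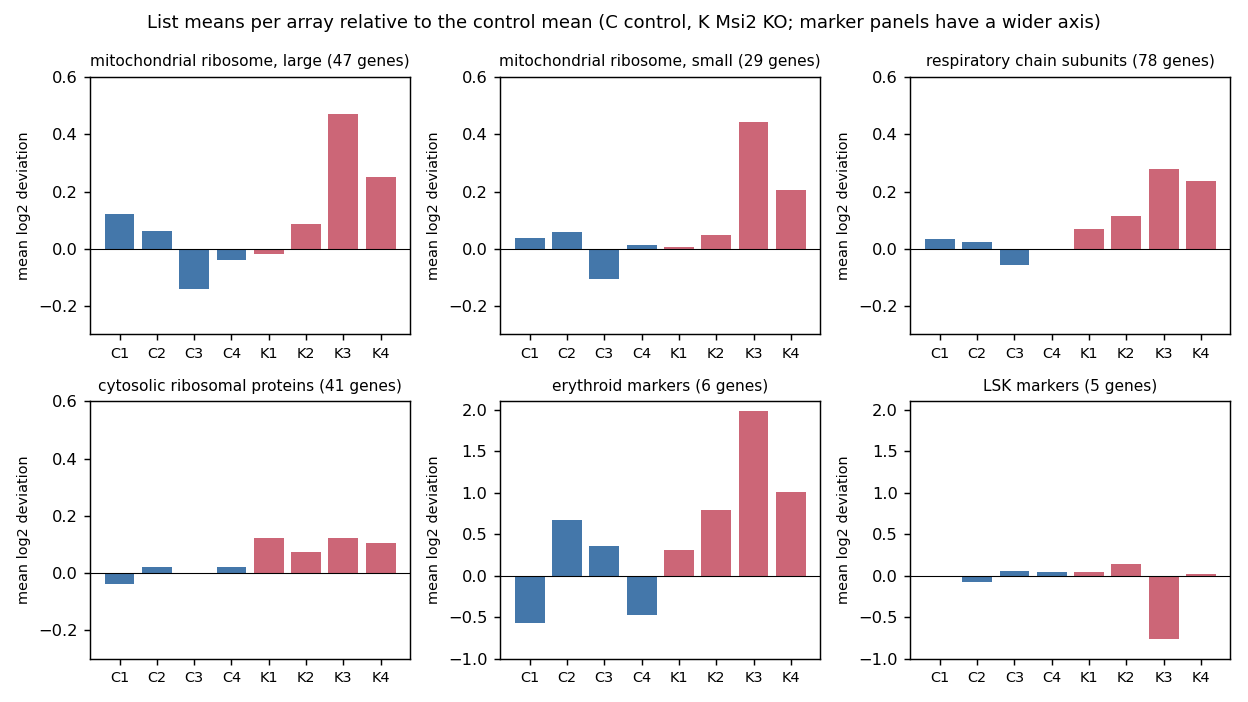
Bars give the mean log2 deviation from the control mean on each array (C control, K Msi2 KO, by replicate number) for 6 gene lists, with a wider y axis for the erythroid and LSK markers. K3 is the tallest bar in both mitochondrial ribosome panels, the respiratory chain panel and the erythroid panel. It is the lowest among the LSK markers.

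From highest to lowest, the Msi2 KO arrays ranked 3, 4, 2 and 1 in the members' mean and in the mean of the erythroid markers. The means of the mast cell markers and of the respiratory chain subunits gave that order too, and that of the cytosolic ribosomal proteins did not. In the Msi2 signal the order 3, 4, 2 and 1 was reversed. The LSK markers ranked the arrays otherwise, as did the mast cell markers by their summed signal. Msi2 KO 3 and 4, with the lowest Msi2 signal, had 70 and 61 of the 76 members above the control mean, and Msi2 KO 1 and 2 had 40 and 47, while controls had 23 to 51. The 6 erythroid markers measured were all higher, while Hba-a1 and Alas2 were listed at 0 and Hbb-bt was not analysed here. Their mean deviation was 0.31, 0.79, 1.98 and 1.01 on Msi2 KO 1 to 4 and -0.57 to 0.67 on controls. Their summed signal ran from 1618 to 4212 on controls and from 2941 to 10733 on Msi2 KO arrays. The 5 LSK markers had a summed signal of 4455 to 4818 on controls and 3138 to 4839 on Msi2 KO arrays. Only Msi2 KO 3 fell below the controls in that sum. On it Flt3 read 7.52 (controls 9.40 to 9.80), Cd34 9.68 (10.30 to 10.63) and Meis1 7.93 (8.72 to 9.39). Kit (9.02, controls 8.39 to 9.16) and Gata2 (10.42, controls 10.28 to 10.82) lay within the control range on that array. The 3 mast cell markers summed to 59.6 to 128 on controls and 213 to 454 on Msi2 KO arrays, with Msi2 KO 2 (426) above Msi2 KO 4 (413). In their mean deviation Msi2 KO 4 (2.23) was above Msi2 KO 2 (1.94). The part of these other cells in the members' difference was not tested.

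Without Msi2 KO 3, 50 of 76 members (65.8%) were higher, beside 49.7% of all genes. The large subunit mean was then 0.11 and the small subunit mean 0.09, and limma gave 7 members as higher and 0 as lower at an unadjusted p under 0.05, beside 4.90% and 5.28% of all genes.

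Among arrays with high Xist (3 controls, Msi2 KO 3 and 4), 71 of 76 members were higher in Msi2 KO. The share of all genes was 52.0%, and the members' mean was 0.38. There 28 members were higher and 0 lower at an unadjusted p under 0.05 in limma, beside 6.88% and 7.12% of all genes. With only 3 controls and 2 Msi2 KO arrays, the Msi2 KO arrays lay above every control for 43 members and below for 1 (Mrps2), beside 17.6% and 15.7% of all genes. Among arrays with low Xist (control 1, Msi2 KO 1 and 2), 31 of 76 were higher, beside 48.2% of all genes. The members' mean there was -0.06. The large subunit gave 0.40 and -0.09 in these classes, and the small subunit 0.34 and -0.01. A limma test of the difference between the classes passed for 0 of 76 members and 0 of 10720 genes. At an unadjusted p under 0.05 it gave 13 members and 8.82% of all genes. The low class has 1 control array, and the Msi2 KO arrays of high Xist are also those with the lowest Msi2 signal, so Xist class and the extent of the loss of Msi2 cannot be told apart here.

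**Figure D5:**
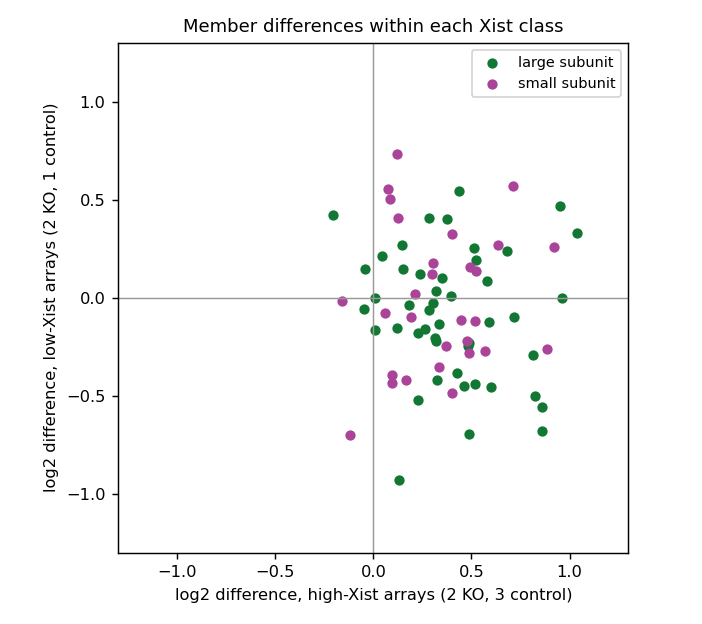
Each point is 1 of the 76 members, placed by its log2 difference among the 5 high-Xist arrays (x axis) and the 3 low-Xist arrays (y axis). Most points lie to the right of 0. On the y axis they fall on both sides of 0, and 31 of 76 are higher, beside 48.2% of all genes.

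Within the groups the members tended to vary together. After subtracting each group's mean, 67 of 76 members correlated positively with the mean of the other members over the 8 arrays (median Pearson r 0.65). The highest were Mrpl47 (0.965), Mrps17 (0.95) and Mrps10 (0.93), and the lowest Mrpl39 (-0.53), Mrps24 (-0.53) and Mrps12 (-0.50). The genes outside the members most like their mean were Sfxn1, a mitochondrial serine carrier (r 0.996), Psmd2, a proteasome subunit (0.985), and Eef1e1, a partner of cytosolic tRNA synthetases (0.977). These correlations share the arrays, with Msi2 KO 3 the farthest point, and carry no test. The share of all genes that correlate positively with the members' mean was not counted, so the 67 members have no background beside them.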

How the data were processed

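RNA of 8 samples was labelled with biotin and hybridised to Affymetrix arrays, per the labels' protocols. The authors deposited log2 signals, 1 per probe set and array, made with RMA, per the submitters' processing notes. Of 45101 probe sets, 20664 (45.8%) were exactly 0 on all arrays, which RMA does not produce, and were left out. Symbols were updated through gene IDs and a RefSeq table (GRCm38.p6). All 10720 genes were fitted with limma 3.58.1 in R 4.3.3 (lmFit, eBayes, two-sided, Benjamini-Hochberg, threshold 0.05), and the procedure was tested on simulated data. Exact permutation used all 70 assignments. Confidence intervals cover 95%. The number of arrays limits the precision. Alternatives were other normalizations, filters, probe set choices, variance models, Xist class, the replicate number as a block and leaving out each array. The members and gene lists were chosen with earlier results of these data known. Named members are the 8 large and 6 small subunit genes of smallest p, the 3 of each subunit most opposed to its mean, Mrps18a to Mrps18c, Mrps30, Mrps36, Mrpl12, Mrpl47 and Mrpl58, and of each partner list the 3 of smallest p. Mrpl10, Mrpl46, Mrps2, Mrps11, Nrf1, Gabpa, Yy1, Myc, Mrm1, Trub2 and Flt3 were named after their values were seen. So were the members at either end of the correlations and the other LSK markers on Msi2 KO 3.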

Additional observations from a re-analysis of the deposited data

Results flagged for a closer look

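Single arrays stood apart from the other 3 of their group for 3 named members. Mrpl35 read 9.06 on Msi2 KO 3 and 8.38 to 8.42 on the other Msi2 KO arrays. Mrps24 read 10.68 on Msi2 KO 1 and 9.89 to 10 on the others. Mrps30 read 8.91 on control 3 and 8.73 to 8.75 on the other controls. Chance marks about 1 in 20 groups in this way, and 56 were looked at. The large subunit mean moved in opposite directions by Xist class: it was 0.40 higher in Msi2 KO among arrays of high Xist and both low-Xist Msi2 KO arrays lay below their control, at a mean of -0.09. For this mean the difference between the classes was not tested.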

How the results depend on the processing

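The subunit means were higher in Msi2 KO under every alternative except the arrays of low Xist alone. There the large subunit mean was -0.086, the small subunit mean -0.0094 and their difference -0.076. On the arrays of high Xist alone the means were 0.40 (large) and 0.34 (small), with 28 members higher at an unadjusted p under 0.05 and 44 members without overlap (shares of all genes: 6.88% higher, 17.6% above and 15.7% below). Leaving out each array in turn gave 0.11 to 0.27 for the large subunit and 0.09 to 0.23 for the small one, lowest without Msi2 KO 3. It gave 7 to 16 members higher at an unadjusted p, 0 to 1 lower and 7 to 16 without overlap. Both counts of 16 came without Msi2 KO 1, the lower member without control 4, and 11 members without overlap came without control 3, Msi2 KO 2 or Msi2 KO 4. Leaving out an array can only add to the count without overlap. Without Msi2 KO 3 the shares of all genes were 4.90% higher, 5.28% lower, 5.30% above and 5.42% below. For the other arrays left out and for the replicate block these shares were not counted, so those counts have no background. The count of genes past the adjusted threshold of limma was 0 to 1 when an array was left out (Zg16, without Msi2 KO 1) and 5 with the Xist class as a covariate (Fcer1a, Fscn1, Mt1, Nhsl1 and Psma8), none of them a member. The large minus small difference was 0.0053 to 0.050 when an array was left out. Overlap was not recomputed for alternatives that change only the model, and no test was run on the low-Xist arrays alone. The replicate block gave 9 members higher, 0 genes past the adjusted threshold and the same subunit means, and only 1 of 4 replicates correlated best with its own number. Correlations between same-numbered arrays ran from -0.17 to 0.14, so the numbers were not taken as pairs.

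Of the 25 named members, 15 kept their direction in all alternatives. With the mean of all probe sets, Mrps25 was -0.020, Mrpl58 -0.023 and Mrpl33 0.0024. Among high-Xist arrays Mrpl17 was 0.13, Mrpl9 0.0062, Mrpl33 0.0076, Mrps14 0.10, Mrps33 0.093 and Mrps18c 0.17. Among low-Xist arrays Mrpl47 was -0.00029, Mrps18a -0.12 and Mrpl58 -0.68. Mrpl9 was 0.0034 with the Xist covariate. Leaving out each array gave -0.36 to 0.051 for Mrpl9 and -0.17 to 0.029 for Mrps18c, positive for both without Msi2 KO 2. The causes of these changes were not tested.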
